A study of Mus musculus with 10 samples.

Results

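Histone H4 monomethylated at lysine 20 (H4K20me1) was compared between muscle stem cells (MuSCs) lacking Kmt5b and control MuSCs, peak by peak along the autosomes. The regions examined were all autosomal H4K20me1 peaks, 41008 of the 44925 peaks in the table, and they were chosen by chromosome alone. The other 3917 peaks lay on the X chromosome. An autosomal peak was tested if its mean score over the 4 libraries was over 50, which held for 40902 peaks and not for 106. The median length of the 41008 peaks was 8400 bases, the range was 400 to 339600 bases, and together they covered 607 Mb. A gene was listed for 31964 of them.

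H4K20me1 was mapped by CUT&RUN, in which an antibody-bound nuclease cuts out and releases the DNA around its target for sequencing. Control cells (Ctrl) carried the genotype Pax7CreERT/Suv4-20h1WT and deleted cells (sKO) carried Pax7CreERT/Suv4-20h1KO, Suv4-20h1 being an older name of Kmt5b, and each genotype had 2 libraries. Both genotypes thus carried the Pax7CreERT driver, a tamoxifen-activated Cre that acts in Pax7-expressing satellite cells, and adult mice of both, on a C57BL/6 background, received tamoxifen. The cells were purified from limb and trunk muscle, cultured and profiled as a bulk population, so cells that escaped recombination cannot be told apart from recombined ones. The study calls the libraries biological replicates. The sources used here do not give the number of mice behind each library, so p-values measure the spread between these libraries. The score of a peak is spike-in normalised coverage rounded to a whole number. It is not divided by peak length and gives no number of reads, so the depth in reads is unknown from it.

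Methylation of H4K20 is built up in steps. KMT5A (SET8) adds the first methyl group, KMT5B and KMT5C add further ones, and PHF8 removes methyl groups. H4K20me1 is known to rise towards mitosis, to lie in broad domains over the bodies of many transcribed genes, and to be bound by readers such as L3MBTL1. RNA polymerase II phosphorylated at serine 2 (Pol II S2P), which was mapped in the same cells, marks elongating polymerase, and its peaks were used here to sort the H4K20me1 peaks. H4K20me1 at the Kmt5b gene is no measure of the deletion, so these values do not check the genotype labels.

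The satellite cell label was compared with Pol II S2P at marker genes. Peaks were listed for 5 of 8 satellite cell markers (Itga7, Megf10, Myod1, Pax7 and Vcam1), with summed scores of 4855 and 5287 in Ctrl against 5534 and 3958 in sKO. Summed scores were 392 to 1433 for 3 of 7 fibro-adipogenic markers, 133 to 256 for 2 of 6 endothelial, 874 to 1368 for 2 of 6 immune, 1023 to 1384 for 3 of 4 smooth muscle and pericyte, and 94 to 231 for 2 of 4 neural and Schwann markers. For the myofibre markers Ckm and Ttn they were 5335 to 8959. The sums ran over 59 Pol II S2P peaks for satellite cell markers and 178 for myofibre markers. Fibro-adipogenic markers had 13 such peaks, endothelial 3 and immune 2. Smooth muscle and pericyte markers had 17, and neural and Schwann markers 4. The sums depend on these peak numbers and so do not rank the cell types. The part of other cell types in the results below was not tested.

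Peaks over gene starts gained more than other peaks near genes (below), so the DNA before the start is shown for the 3 protein-coding genes with the largest gain and the 3 with the largest loss among called start-covering peaks of mean score over 500. The genotypes did not overlap at these peaks on equal totals (defined below), and windows that touched an annotated exon were left out. Each run gives the 200 bases before the listed gene start, 5′ to 3′ on the strand of the gene, with every CpG in capitals. CpG was counted because it marks a common class of promoter. The letters CG read the same on both strands. The runs were read from GRCm38 at chr19:12501455-12501654 for Dtx4, a ubiquitin ligase of the deltex family, on the minus strand. Syne3, a nuclear envelope protein gene, gave chr12:105009810-105010009 on the minus strand, and Pck1, which encodes a gluconeogenic enzyme, gave chr2:173152848-173153047 on the plus strand. These 3 peaks gained.
Dtx4: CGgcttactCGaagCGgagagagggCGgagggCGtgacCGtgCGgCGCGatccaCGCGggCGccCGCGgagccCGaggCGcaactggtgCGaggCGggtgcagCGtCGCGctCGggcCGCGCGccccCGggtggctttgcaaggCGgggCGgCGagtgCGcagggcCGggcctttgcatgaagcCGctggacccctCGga
Syne3: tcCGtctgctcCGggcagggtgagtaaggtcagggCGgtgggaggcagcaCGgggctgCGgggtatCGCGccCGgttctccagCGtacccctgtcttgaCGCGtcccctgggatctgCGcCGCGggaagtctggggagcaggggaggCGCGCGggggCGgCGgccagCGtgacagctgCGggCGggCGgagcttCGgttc
Pck1: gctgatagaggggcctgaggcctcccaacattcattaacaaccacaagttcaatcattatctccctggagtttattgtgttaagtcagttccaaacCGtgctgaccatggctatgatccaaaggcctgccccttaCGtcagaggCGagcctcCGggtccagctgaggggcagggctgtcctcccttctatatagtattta
The other 3 lay at chr9:90114775-90114974 on the minus strand for Morf4l1, a chromodomain protein gene, at chr10:22158369-22158568 on the plus strand for Raet1e, an immune ligand gene, and at chr9:59486619-59486818 on the minus strand for Arih1, a ubiquitin ligase gene. These peaks lost.
Morf4l1: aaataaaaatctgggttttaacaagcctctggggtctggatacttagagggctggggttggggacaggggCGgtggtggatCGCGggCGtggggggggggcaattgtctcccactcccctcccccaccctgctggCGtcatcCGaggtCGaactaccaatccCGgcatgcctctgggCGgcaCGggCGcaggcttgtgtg
Raet1e: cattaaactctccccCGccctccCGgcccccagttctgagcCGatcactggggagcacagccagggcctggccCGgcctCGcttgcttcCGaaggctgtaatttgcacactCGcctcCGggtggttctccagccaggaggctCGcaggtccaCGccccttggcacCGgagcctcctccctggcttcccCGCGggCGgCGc
Arih1: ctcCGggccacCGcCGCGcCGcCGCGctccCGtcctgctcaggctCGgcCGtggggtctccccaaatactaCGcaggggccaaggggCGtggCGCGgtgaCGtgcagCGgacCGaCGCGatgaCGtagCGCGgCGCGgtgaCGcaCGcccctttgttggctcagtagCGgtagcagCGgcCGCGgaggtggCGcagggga
CpG numbered 33 before Dtx4, 24 before Syne3 and 4 before Pck1, against 11 before Morf4l1, 15 before Raet1e and 31 before Arih1. Of the 3485 windows of this length before the starts covered by peaks of protein-coding genes, 96.8% held a CpG and the median was 10, so 5 of the 6 starts shown were above the median and Pck1 was below it.

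On equal totals the peaks over these starts changed by 1.72, 1.63 and 1.40 (log2) at Dtx4, Syne3 and Pck1, and by -1.03, -1.01 and -0.98 at Morf4l1, Raet1e and Arih1. The Dtx4 peak, 20 kb long, scored 169 and 150 in Ctrl against 994 and 1086 in sKO. The Syne3 peak scored 179 and 166 in Ctrl against 1030 and 1082 in sKO, and the Pck1 peak scored 145 and 224 in Ctrl against 874 and 1010 in sKO. Both sKO libraries were far above both Ctrl libraries at each of the 3. The Morf4l1 peak scored 936 and 1379 in Ctrl against 1026 and 1170 in sKO, the Arih1 peak 4188 and 5733 against 4782 and 5042, and the Raet1e peak 890 and 1298 against 754 and 1463. At these 3 the genotypes overlapped on the deposited scale, although the library totals, given next, were higher in sKO, and the 2 sKO libraries differed most at Raet1e.

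On the deposited scale H4K20me1 was higher in sKO at nearly every autosomal peak. The autosomal scores came to 13533657 and 18103713 in Ctrl against 29655556 and 32238286 in sKO, a ratio of 1.96 between genotype means. The median peak scored 148 and 198 in Ctrl against 381 and 423 in sKO. The median log2 fold change over tested peaks was 1.14, with quartiles of 0.83 and 1.49. With limma, with the adjusted p below 0.1 and a change of more than 0.5 on the log2 scale, 36842 peaks (90.1%) were called higher, and both sKO libraries were above both Ctrl libraries at 38396 peaks (93.9%). The change between library totals enters every peak alike, so these calls depend on one another. The number called higher was 23269 without sKO replicate 1 and 17871 without sKO replicate 2, which leaves 1 sKO library assumed to vary like the Ctrl pair. Spike-in counts were not used here, and so the scaling of the libraries against each other was taken as deposited.

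Few peaks went the other way on this scale. A single peak (0.00244%) was called lower, at chr8:72118800-72122199 in no listed gene, with scores of 40 and 119 in Ctrl against 32 and 21 in sKO and a limma adjusted p of 0.067. It was singled out after its values were seen, and it was not called with the replicate number as a block. On this scale 0 peaks were lower at an unadjusted limma p under 0.05, this peak included. The adjustment was mild because most peaks had small p-values, so the call is weak. Without Ctrl replicate 1, 50 peaks were called lower. Both sKO libraries were below both Ctrl libraries at 11 peaks (0.0269%), 9 of them listed with a gene. These were 2 peaks in Auts2 and 1 each in Pkm, Msl2, Ddx5, Cdyl, Ywhaz, Tra2b and Srsf3. Ddx5, an RNA helicase gene, scored 308 and 306 in Ctrl against 265 and 260 in sKO. Tra2b and Srsf3, which encode splicing regulators, scored 1312 and 1495 against 1168 and 1218, and 736 and 901 against 655 and 703. Of the 11, 10 were not called.

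To compare where the mark lay and not how much of it there was, each library was divided by its autosomal total and multiplied by the mean of the 4 totals. On these equal totals the median log2 fold change was 0.17, with quartiles of -0.14 and 0.51, and 63.8% of peaks had a positive value. With limma and the same thresholds 9244 peaks (22.6%) were called higher and 1805 (4.41%) lower. Both sKO libraries stood above both Ctrl libraries at 46.6% of peaks and below at 21.2%. The split of calls depends on the centre chosen. With median-of-ratios scaling 5982 peaks were called higher and 4166 lower, and with quantile normalisation 4630 and 4598. On equal totals 5543 peaks were called higher without sKO replicate 2, and 2885 lower without Ctrl replicate 1. Gains and losses below are therefore relative to the autosomal total. The change was shared by the replicates: between sKO 1 over Ctrl 1 and sKO 2 over Ctrl 2 the Spearman correlation across peaks was 0.68, and with the pairs exchanged it was 0.66, a description over 40902 peaks.

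The H4K20me1 level per kb became more even across peaks in sKO. The level at the 90th percentile of peaks was 2.27 and 2.50 times that at the 10th percentile in Ctrl, against 1.56 and 1.58 times in sKO. Short peaks have low scores and vary more by chance, so the ratio was also taken over long peaks. Over the 17619 peaks of 10 kb or more it was 2.07 and 2.14 in Ctrl against 1.38 and 1.37 in sKO. Over the 2007 peaks of 50 kb or more, whose median scores were 1862 to 3844 per library, it was 1.72 and 1.74 in Ctrl against 1.25 and 1.27 in sKO. In each set both sKO libraries were below both Ctrl libraries, by far more than replicates differed. The sKO libraries also had the higher total scores, and the part of that in the narrower range was not tested.

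**Figure D1:**
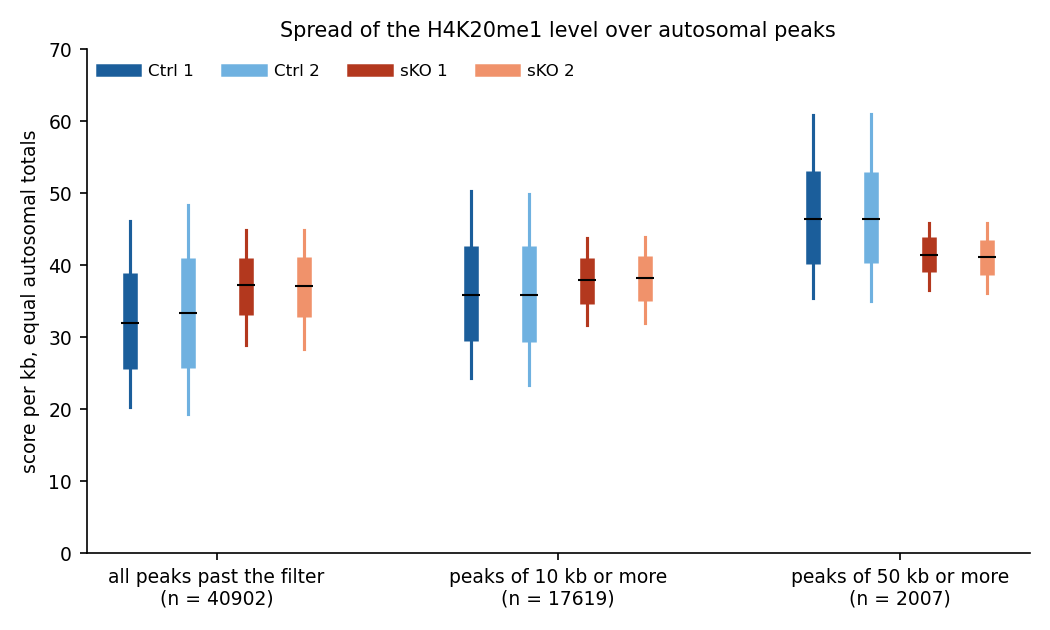
Score per kb on equal autosomal totals in each of the 4 libraries (vertical axis), for all tested peaks and for peaks of at least 10 kb and 50 kb; lines run from the 10th to the 90th percentile of peaks, boxes from the 25th to the 75th, and the black bar is the median. In all 3 sets the sKO lines are shorter than the Ctrl lines, with 90th to 10th percentile ratios of 1.25 to 1.58 against 1.72 to 2.50.

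Which peaks were high also differed between genotypes. Over the 2007 longest peaks the Spearman correlation of score per kb was 0.94 between the Ctrl libraries and 0.83 between the sKO libraries, yet between 0.09 and 0.17 for the 4 pairs of a Ctrl and an sKO library. Over peaks of 10 kb or more it was 0.88 within Ctrl, 0.65 within sKO and 0.15 to 0.25 between genotypes. The order of the levels was thus shared by replicates and hardly shared by genotypes. Across peaks of 10 kb or more the level correlated only weakly with GC content (Spearman -0.12 to 0.01 per library) and with the repeat-masked share of the peak (-0.07 to 0.07). All points of these correlations come from the same 4 libraries and 1 set of peaks, so no p is given.

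Peaks low in Ctrl gained and peaks high in Ctrl lost. Peaks were ranked into 4 level groups of equal size by their score per kb in 1 Ctrl library, and the change was measured from the other, so that ranking and change shared no library. Ranked on Ctrl 1, the lowest group had a median of 22.4 per kb in Ctrl 2 and 36.2 and 36.0 in sKO, and its median log2 change was 0.70. The second group went from 30.1 to 36.4 and 36.5, the third from 35.3 to 37.2 and 37.0, and the highest from 43.5 to 38.9 and 38.7, a change of -0.19. The groups spanned 22.4 to 43.5 per kb in Ctrl 2 but no more than 36.0 to 38.9 in sKO. The share of the autosomal total held by the lowest group rose from 7.82% to 12.3% and 12.5%, and that of the highest fell from 56.1% to 47.1% and 46.8%. Ranked on Ctrl 2 and measured from Ctrl 1, the lowest and highest groups changed by 0.68 and -0.17. Highest against lowest group differed by -0.87 on average over both versions, and by -0.68 to -1.18 within each class of peak length. A region that is low in Ctrl enters the union of peaks only if it was called in some library. Which libraries each peak was called in was not used here, and the part of this choice in the gain of low peaks was not tested.

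**Figure D2:**
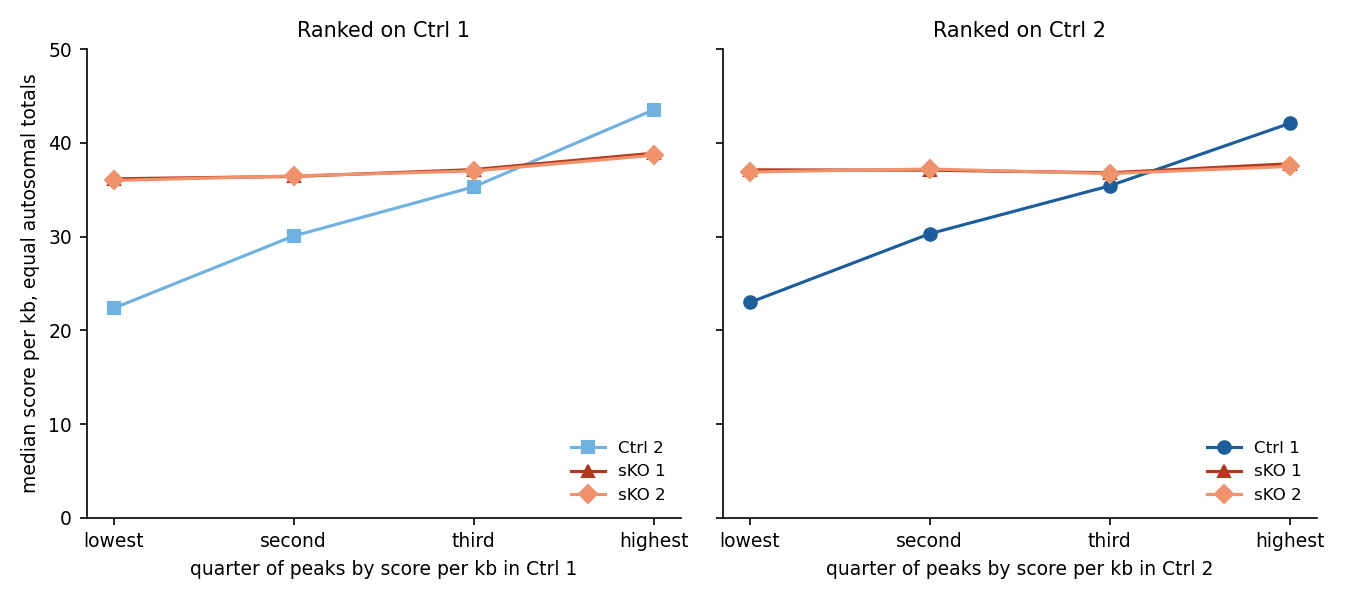
Median score per kb on equal autosomal totals (vertical axis) for 4 groups of the tested peaks ranked by 1 Ctrl library (left, Ctrl 1; right, Ctrl 2), shown for the Ctrl library not used for ranking and for both sKO libraries. The Ctrl line climbs from 22.4 to 43.5 on the left, while the sKO lines stay between 36.0 and 38.9.

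Long domains lost share and shorter ones gained. The 2007 peaks over 50 kb held 32.3% and 32.2% of the autosomal score in Ctrl against 27.8% and 27.6% in sKO. Their median log2 fold change on equal totals was -0.17, with 305 (15.2%) called lower and 36 (1.79%) higher, against 4.41% and 22.6% of all tested peaks. They were higher on the deposited scale, with a median of 0.81. Peaks of 20 to 50 kb (6225) had a median of 0.01 on equal totals. The median was 0.18 for 10 to 20 kb (9387 peaks), 0.28 for 5 to 10 kb (13932), 0.21 for 2 to 5 kb (8692) and 0.31 for under 2 kb (659). Under 2 kb the sKO libraries stood at 0.25 and 0.06 from the 4-library mean, so the order among the short classes is not resolved. The largest gain in share was in the peaks of 5 to 10 kb, which held 12.5% and 12.6% in Ctrl against 14.9% and 15.2% in sKO.

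**Figure D3:**
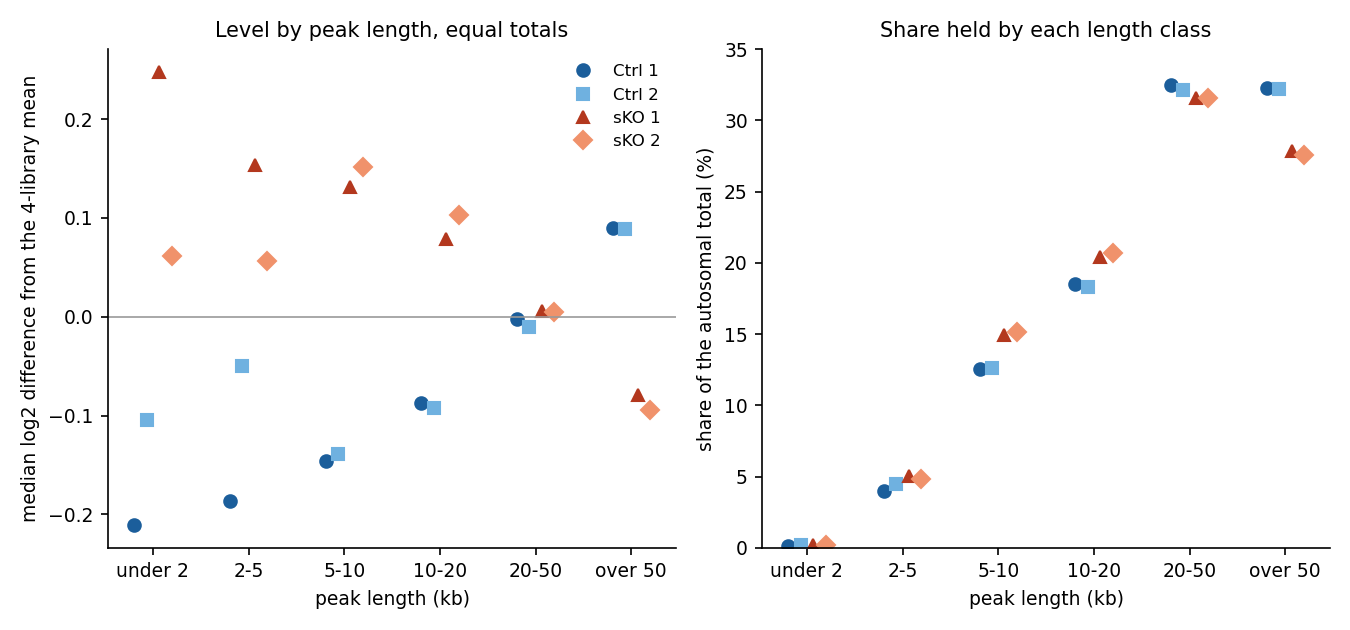
Left, median over peaks of the log2 difference from the peak's mean over the 4 libraries, on equal autosomal totals, by peak length in kb and library; right, share of each library's autosomal total held by each length class in percent. Over 50 kb the Ctrl libraries lie above the sKO libraries, and between 5 and 20 kb below them.

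The difference between peaks over 50 kb and under 5 kb was compared by library, as the class medians of the log2 difference from the 4-library mean. It was 0.28 and 0.14 in Ctrl against -0.24 and -0.15 in sKO, which gave sKO less Ctrl as -0.40 with a pooled SD of 0.080. The libraries did not overlap, and the exact two-sided permutation p was 0.333, the smallest that 2 libraries against 2 allow. This difference went along with the level: averaged within groups of the mean level per kb it was -0.017, and long peaks were the ones with high levels. Without the peaks that hold a Pol II S2P peak it was -0.24, an alternative chosen after seeing the data.

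By the type of the listed gene the medians were all above 0. On equal totals the median log2 fold change was 0.15 for the 28990 tested peaks listed with a protein-coding gene, 0.26 for 2155 peaks of long non-coding RNA genes, 0.17 for 522 of pseudogenes, 0.20 for 140 of small and structural RNA genes, 0.36 for 102 of other types and 0.22 for the 8993 peaks with no listed gene. Among the lncRNA peaks 28.3% were called higher and 2.65% lower, against 22.6% and 4.41% of all. The protein-coding share of the autosomal score was 87.5% and 87.0% in Ctrl against 85.8% and 85.7% in sKO, and that of peaks with no listed gene 8.50% and 8.92% against 9.77% and 9.90%. Protein-coding against no listed gene differed by -0.07 with a pooled SD of 0.028 (exact permutation p = 0.333). Peaks without a gene were shorter, with a median of 5800 against 10400 bases, and the difference turned to 0.031 within classes of peak length and to 0.044 within groups of the level per kb. No direction by gene type is therefore given.

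Position within protein-coding genes separated the peaks more clearly. Peaks that covered the gene start but not its end had a median of 0.32 (3485 peaks), peaks inside the gene 0.16 (18624), peaks that covered the end but not the start 0.05 (4927) and peaks over the whole gene 0.02 (1954). Their median lengths were 13600, 8000, 18200 and 34600 bases. In the same order, with all gene types, the medians were 0.56, 0.24, 0.27 and 0.32 at 5 to 10 kb. At 10 to 20 kb they were 0.35, 0.15, 0.14 and 0.24. The order of inside, end and whole gene thus did not hold within these length classes. At gene starts 36.9% were called higher, against 15.2% at gene ends, where 8.52% were called lower. The level per kb at starts was 31.1 and 30.6 in Ctrl against 38.7 and 38.9 in sKO, and at ends it was 37.3 and 37.3 in Ctrl against 38.9 and 38.6 in sKO. The lower level at starts that both Ctrl libraries showed was thus not seen in sKO. Start against inside differed by 0.16 between genotypes, with a pooled SD of 0.031, and the libraries did not overlap (-0.04 and -0.10 in Ctrl, 0.07 and 0.09 in sKO, exact permutation p = 0.333, the smallest possible). The value was 0.25 within classes of peak length and 0.17 with peaks that overlapped 1 protein-coding gene only. Of all peaks, 10.99% overlapped 2 or more such genes.

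The gain fell off over the first 50 kb from the start. With the centre of the peak under 2 kb from the start of a protein-coding gene, the level was 27.6 and 27.1 per kb in Ctrl against 38.1 and 38.5 in sKO, and 48.0% of these 1545 peaks were called higher, with a median of 0.51. At 2 to 5 kb the median was 0.34, at 5 to 10 kb 0.18, at 10 to 20 kb 0.08 and at 20 to 50 kb 0.06. It was 0.12 at 50 to 100 kb, 0.16 at 100 to 250 kb and 0.19 beyond. In Ctrl the level climbed from the start to a plateau at 10 to 50 kb, while in sKO it was between 35.9 and 38.5 per kb at every distance. Within the same gene, the start-covering peak gained 0.10 more than the peaks inside in the median of 1767 genes (61.2% of them positive), and 0.12 more than the peak at the end in 1384 genes. End and inside differed by 0.02 in 2225 genes.

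CpG content of the start did not order the gain one way. In windows from 250 bases before to 50 after the listed start, the median gain was 0.20 with 0 to 2 CpG (301 peaks), 0.29 with 3 to 5 (447), 0.44 with 6 to 10 (546), 0.47 with 11 to 15 (487), 0.41 with 16 to 20 (457) and 0.23 with over 20 (1247). Starts with intermediate numbers of CpG thus had the largest medians. Peaks over starts with more than 20 CpG were longer (median 18400 bases, against 9400 with 0 to 2), and the part of length in this was not tested.

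**Figure D4:**
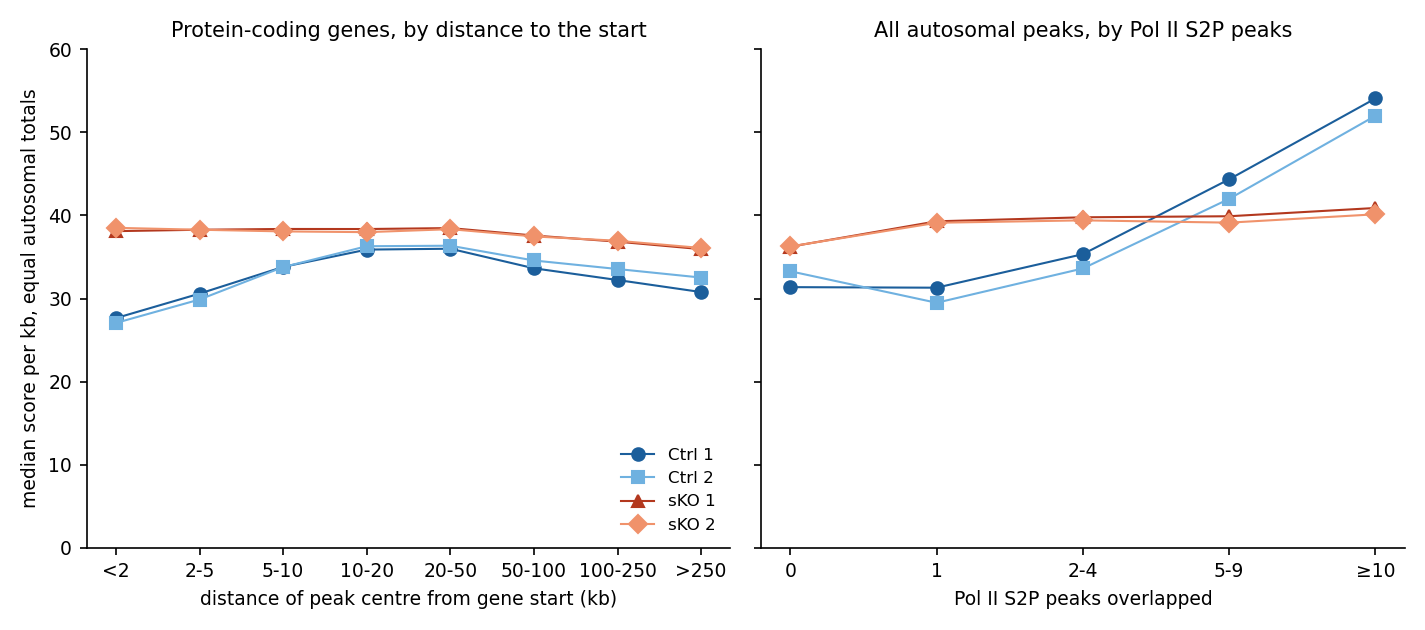
Median score per kb on equal autosomal totals (vertical axis) in each library, for peaks of protein-coding genes by distance of the peak centre from the gene start in kb (left) and for all tested peaks by the number of Pol II S2P peaks they overlap (right). On the left the Ctrl libraries rise from 27.6 and 27.1 per kb near the start and the sKO libraries stay level; on the right Ctrl rises to 54.1 and 52.0 and sKO to 40.9 and 40.1.

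Among groups by the number of Pol II S2P peaks overlapped, the most crowded peaks lost the most on equal totals. The 604 peaks that overlapped 10 or more Pol II S2P peaks had 54.1 and 52.0 per kb in Ctrl against 40.9 and 40.1 in sKO. They were long, with a median of 54200 bases, and were higher in sKO on the deposited scale (median log2 fold change 0.58). The part of the high Ctrl level in the relative loss of these peaks was not tested. Their median log2 fold change on equal totals was -0.41, and 251 (41.6%) were called lower and 20 (3.31%) higher. Peaks with 5 to 9 had a median of -0.13 (1224 peaks), with 2 to 4 of 0.20 (3531), with 1 of 0.39 (5115) and with none of 0.16 (30428). The order therefore turned between few and many Pol II S2P peaks. Taken as present or absent, Pol II S2P gave a difference of 0.04 with a pooled SD of 0.058 (exact permutation p = 1), within the spread between replicates. Without Ctrl replicate 1 it was 0.10, and without Ctrl replicate 2 it was -0.017. Within classes of peak length it was 0.31, and within groups of the mean level per kb 0.21. Short peaks with Pol II S2P gained. The 380 peaks of 2 to 5 kb with 2 to 4 Pol II S2P peaks had a median of 0.95 (62.9% higher), against 0.11 (17.1% higher) for the 7320 of that length with none. At 5 to 10 kb it was 0.71 (60.5% higher, 744 peaks) against 0.24 (25.5% higher, 11765 peaks). Long peaks with many lost, for the 324 peaks over 50 kb with 10 or more had a median of -0.41, against -0.13 for the 501 with none. At gene ends the 2511 peaks with Pol II S2P had a median of -0.06 and the 2416 without it 0.13. Those with it were longer, with a median of 24400 against 13800 bases. They were also higher in Ctrl, at 41.2 and 40.3 against 34.4 and 35.1 per kb. The part of length and level in this contrast was not tested.

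The peaks with the largest fold gain were taken among those of protein-coding genes with a mean score over 500. They lay mostly inside genes, as did most tested protein-coding peaks (18624 of 28990). Dst, which encodes a linker of cytoskeletal filaments, had a peak of 21.6 kb inside the gene at chr1:34108400-34129999, with scores of 168 and 196 in Ctrl against 1270 and 1413 in sKO. On equal totals its log2 fold change was 1.90 ± 0.14 (SE, limma, adjusted p = 7.4e-42), and on the deposited scale 2.88. Tns3, the gene of the focal adhesion protein tensin 3, went from 143 and 169 to 1053 and 1163. Capn5, a calpain protease gene, went from 136 and 150 to 994 and 1022. The peaks in 1110051M20Rik (142 and 189 against 1077 and 1194) and over Sting1, the adaptor of DNA sensing (166 and 227 against 1135 and 1273), behaved alike, and Dtx4, given above, completes the 6. All 6 were at 9.69 to 14.6 per kb in Ctrl, far below the Ctrl medians of 32.0 and 33.3, and at 34.5 to 47.4 per kb in sKO. Picking peaks by fold gain favours a low Ctrl level, so this is no separate result.

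Pkm, Srsf3, Msl2, Rbm39 and Brd2 were among the largest fold losses. Pkm, the gene of a pyruvate kinase, had a peak of 24.8 kb over the gene end at chr9:59657600-59682399, which held 19 Pol II S2P peaks and scored 1057 and 1245 in Ctrl against 807 and 976 in sKO. Its log2 fold change on equal totals was -1.35 ± 0.09 (SE, limma, adjusted p = 9.9e-44), and -0.37 on the deposited scale, where it was not called. Srsf3 changed by -1.24 on equal totals. Msl2, a ubiquitin ligase subunit of a histone acetyltransferase complex, scored 554 and 644 against 515 and 483. Rbm39, a splicing factor gene, scored 1842 and 2436 against 1663 and 1895, and Brd2, a reader of acetylated histones, 542 and 745 against 550 and 518. These 5 were at 62.6 to 92.0 per kb in Ctrl and at 25.7 to 39.5 in sKO, and picking by fold loss likewise favours a high Ctrl level. The peak listed with Rbm39 also overlapped Nfs1 and Romo1, and that of Pkm also Gramd2.

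In share of the autosomal score, given in ppm, the largest losses were in very long domains. The first is listed with Galnt2 under an identifier that GENCODE M21 names Gm20388, an entry of over 4 Mb. This peak of 193.6 kb at chr8:122847600-123041199 overlaps Ankrd11 and Cdh15, and Galnt2 itself is not among the genes it overlaps. Cdh15, which encodes M-cadherin of satellite cells, therefore had H4K20me1 although no peak is listed with it. The share of this peak was 647 and 604 ppm in Ctrl and 316 and 318 ppm in sKO. The peak listed with Zbtb40, which also overlaps Epha8 and the complement genes C1qa, C1qb and C1qc, went from 615 and 658 to 368 and 355 ppm. Maea, a ubiquitin ligase subunit, lay in a peak of 291.6 kb over 4 genes that went from 735 and 741 to 492 and 494 ppm. Map4k4, a kinase gene, went from 431 and 434 to 210 and 198 ppm. On the deposited scale none of the 4 was called, and the peak listed with Galnt2 scored 8752 and 10928 in Ctrl against 9379 and 10252 in sKO. The largest gains in share were smaller. Itpr1, the gene of a calcium channel gated by inositol trisphosphate, went from 160 and 160 to 221 and 224 ppm in a peak of 114 kb inside the gene. The peaks listed with Brf1 and Eaf2, over 5 and 4 genes, gained 68.4 and 58.8 ppm. None of these 3 gains passed the fold limit of 0.5 on equal totals, and with quantile normalisation all 3 did, while the losses at Zbtb40 (-0.45) and Maea (-0.29) then missed it.

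**Figure D5:**
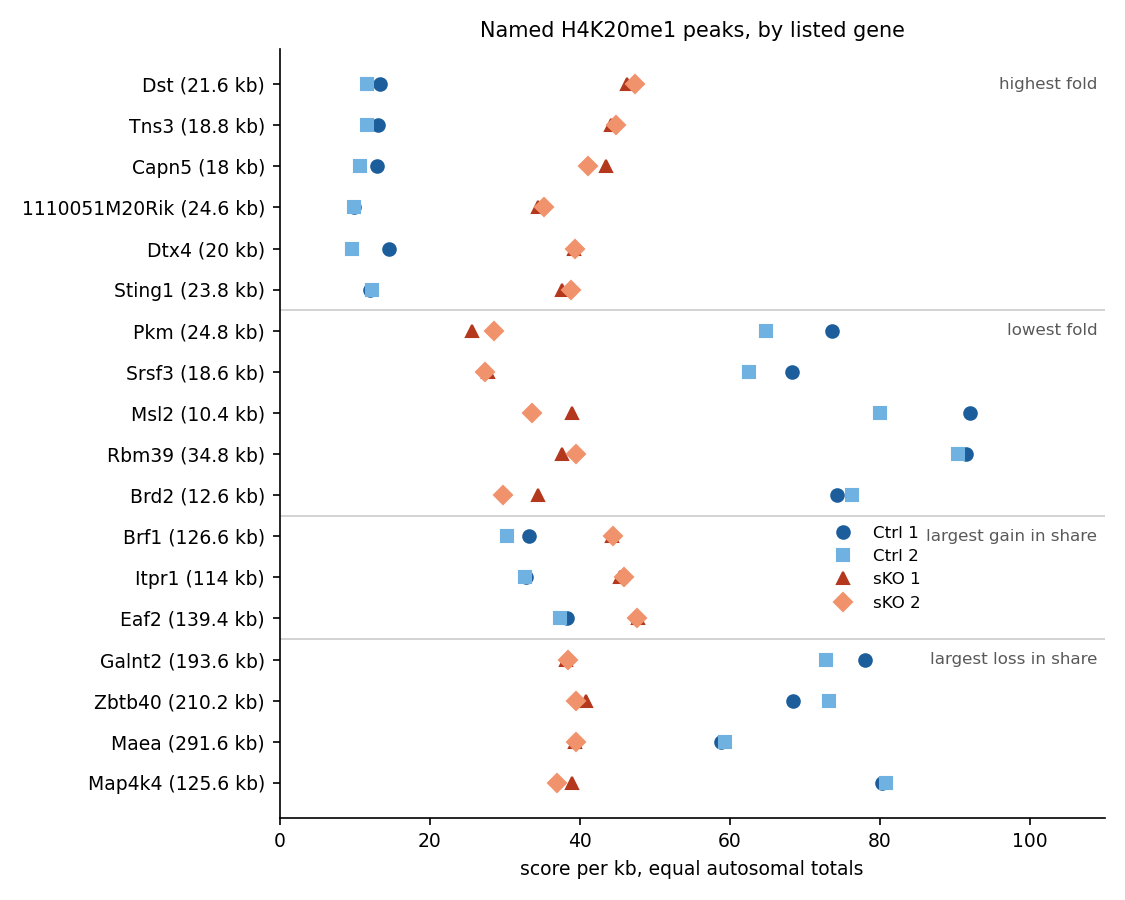
Score per kb on equal autosomal totals (horizontal axis) of 18 named peaks in each library, grouped into high and low fold changes and large gains and losses in share, with the length of each peak beside its listed gene. The sKO points lie between 25.7 and 47.8 per kb in every group, while the Ctrl points range from 9.69 to 92.0. The peaks were picked by their change between genotypes, which favours such a contrast.

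Most peaks of H4K20 methylation genes were not called on equal totals. Of 26 peaks listed with 14 of the 18 genes of writers, erasers and readers, 2 were called higher (7.69%), 3 lower (11.5%) and 21 neither, with a median of -0.11, beside 22.6%, 4.41% and a median of 0.17 over all tested peaks. Kmt5b, the deleted gene, had 3 peaks. The peak of 32.6 kb inside it scored 1081 and 1356 in Ctrl against 1402 and 1591 in sKO and was called lower on equal totals (-0.68). Its other 2 peaks, with -0.12 and -0.10, were not called. Kmt5a was called lower (-0.61; 476 and 660 against 712 and 739), as was the demethylase gene Phf2 (-0.65), while Kmt5c (0.74; 155 and 259 against 683 and 642) and L3mbtl1 (0.60) were called higher. L3mbtl1 was not called without sKO replicate 2 or with either other scaling, and Phf2 was not called with quantile normalisation. The peaks of Kmt5a and Kmt5c each overlap a neighbour, Rilpl2 and Cox6b2.

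Many peaks of satellite cell and myogenic genes gained. Of their 41 peaks, 19 (46.3%) were called higher and 2 (4.88%) lower, with a median of 0.54, beside 22.6%, 4.41% and 0.17 over all tested peaks. Higher peaks were listed with Calcr, Chodl, Fgfr4, Megf10, Met, Myf5, Notch3, Pax7 and Vcam1. Met, the receptor of hepatocyte growth factor, had a peak of 2.4 kb inside the gene that scored 12 and 23 in Ctrl against 138 and 192 in sKO (log2 fold change 2.26 ± 0.56, SE). Vcam1, an adhesion molecule of satellite cells, had a peak over its start that scored 24 and 56 against 299 and 280. The Ctrl means of the Met and Vcam1 peaks (17.5 and 40) were under the filter limit of 50. Both peaks were thus tested only because of their sKO scores, which favours a gain. Des, the intermediate filament gene of muscle, was lower (187 and 304 against 250 and 216, -1.02), as was Pax3 (138 and 185 against 200 and 184, -0.71). No peak was listed with Myod1, Myog or Myf6. Of the 20 peaks of the satellite cell markers, a list that shares Calcr, Megf10, Myf5, Pax7 and Vcam1 with it, 12 were called higher. For markers of other cell types it was 2 of 5 fibro-adipogenic, 4 of 13 endothelial, 1 of 5 immune and 1 of 8 smooth muscle and pericyte peaks, while 4 of 12 myofibre peaks were called lower. The 20 satellite cell marker peaks were low in Ctrl, at 23.2 and 21.4 per kb. In the lowest of 4 groups by mean level per kb, 52.9% of 10226 tested peaks were called higher, with a median of 0.60. The part of the low Ctrl level in the gain of these genes was not tested. Without sKO replicate 2 the Met peak and the Pax3 peak were not called.

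Sarcomere genes were split. Of 47 peaks 19 (40.4%) were called higher and 6 (12.8%) lower, against 22.6% and 4.41% of all tested peaks, and their median was 0.01 against 0.17. Tnni1, the slow troponin I gene, scored 60 and 67 in Ctrl against 434 and 456 in sKO (1.82), and Myom1, an M-band gene, 32 and 29 against 219 and 283 (2.02). The Ctrl mean of the Myom1 peak (30.5) was under the filter limit of 50, so it was tested only because of its sKO scores. The peaks called lower lay in Ttn and Neb, the genes of titin and nebulin. Neb, with 124 and 187 in Ctrl against 171 and 175 in sKO at its end, changed by -0.79 there and also had a higher peak elsewhere. The Ttn peak with the lowest value (-1.07) was not called, with scores of 41 and 72 against 50 and 51, but was called with either other scaling. The Neb loss was not called without sKO replicate 2.

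The remaining lists are set against the 22.6% of all tested peaks called higher and the 4.41% called lower. Of 12 peaks of p53 response genes 3 (25%) were called higher, about the share over all peaks, in Fas, Gadd45a and Trp53inp1. Mdm2 (-0.46) and Sesn2 (-0.42) were within the fold limit on equal totals and were called lower with median-of-ratios scaling, where Fas was not called. Gadd45a scored 352 and 405 in Ctrl against 1136 and 1380 in sKO (0.75). Of 24 peaks of replication origin genes, Gins3 (0.72) was called higher and Orc6 (-0.90) lower, 4.17% each. Of 103 tested peaks of olfactory and vomeronasal receptor genes 12 (11.7%) were higher and 6 (5.83%) lower. Among 11 Hox peaks 4 (36.4%) were higher and 2 (18.2%) lower, with a gain at Hoxc5 (0.97; 270 and 507 against 1362 and 1512) and losses over Hoxd11 (-0.82) and Hoxb3 (-0.68), each peak spanning several Hox genes, and Hoxb3 was not called with quantile normalisation. The Hoxc12 peak (0.95) scored 142 and 440 in Ctrl, so its Ctrl libraries stood far apart, and without Ctrl replicate 1 it was not called (0.34). No H4K20me1 peak was listed with a histone gene of the list.

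Gains and losses were spread over all autosomes. The median log2 fold change on equal totals ran from 0.06 on chromosome 9 to 0.32 on chromosome 3, and the share of peaks called higher from 17.1% to 31.0%. Neighbouring peaks changed alike: with the change of one peak taken from one pair of libraries and that of its neighbour from the other pair, the Spearman correlation was 0.35 over 40883 neighbours, 0.44 with gaps under 5 kb and 0.21 with gaps over 100 kb. Base composition ordered the change only a little. Medians were 0.14 to 0.19 in 4 groups by GC content, rose from 0.09 to 0.23 from the lowest to the highest group by CpG per kb, and fell from 0.22 to 0.12 with the repeat-masked share.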

How the data were processed

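The authors trimmed CUT&RUN reads with Trimmomatic 0.39, aligned them to mm10 (GRCm38) with STAR 2.7.3a and removed duplicates with Picard 2.21.7. The submitters' processing notes also name SICER 0.0.41 and MACS2 2.1.1 without a role. The deposited values are a score, the spike-in normalised coverage of each union peak rounded to whole numbers, and the deposited fraction of each peak inside its listed gene. Scores were not treated as read counts. Read numbers the study lists were not used here, and the IgG libraries were not analysed here. Peaks lie on a grid of 200 bases, and coordinates are given as deposited.

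The 4 libraries (2 Ctrl, 2 sKO) were compared with limma 3.58.1 (lmFit, eBayes with trend; R 4.3.3) on log2(score + 1), which understates changes of low scores, with a mean over 50 required, on the deposited scale and on equal autosomal totals. Peaks were called where p, adjusted after Benjamini and Hochberg, was below 0.1 and the log2 fold change passed 0.5 in size, the limits that the study set for genes. The variance is shared over all peaks, so p-values are smaller than 2 libraries alone would give. Class differences used an exact two-sided permutation test over libraries. Positions compared the peak with the gene and strand listed. A Pol II S2P peak was held at an overlap of 1 base. Listed identifiers were found in GENCODE M21 for 14538 of 14565 genes, and 424 symbols differ there. Sequences, GC, CpG and repeats came from the RefSeq copy of GRCm38.p6 with pysam 0.24.0, under Python 3.11.15 with pandas 2.3.3, scipy 1.17.1 and numpy 2.4.6. Sequence of chromosome 18 is not shown.

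Named peaks were those of protein-coding genes with a mean over 500 and no overlap between genotypes: the 6 highest and 6 lowest called fold changes and the 4 largest gains and losses in share, plus the 2 highest and 2 lowest peaks of each of 8 gene lists and all peaks of Kmt5a, Kmt5b and Kmt5c. Of these, 2 peaks are not reported here. Classes and lists were chosen with earlier results of these data known. On simulated data with 40848 peaks on equal totals, 82 of 100 changes of 1 and 96 of 97 changes of 2 (log2) were called, with 5 false calls. Only these few peaks were changed there, and the variance was set in proportion to the mean. Far more peaks were called in the data, so the simulation does not give the number of false calls among them. Alternatives were no filter, a pseudocount of 10, other scalings, a replicate block, leaving out each replicate, and classes matched on level, GC or length.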

Additional observations from a re-analysis of the deposited data

Results flagged for a closer look

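Peaks on X, which enter none of the comparisons above, were also higher in sKO on the deposited scale, their scores adding up to 1685063 and 2328931 in Ctrl against 2538580 and 2808284 in sKO (log2 ratio 0.41), and were lower per kb on equal autosomal totals, with medians of 41.7 and 45.4 in Ctrl against 28.9 and 29.7 in sKO over the 3901 peaks of mean score over 50.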

How the results depend on the processing

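The difference between genotypes on the deposited scale rests on a scale that 2 libraries per genotype and unused spike-in counts cannot check, and scores give no depth. Without a filter and with a pseudocount of 10 all 4 numbers of calls stayed within 1.5 times of those reported. Leaving out 1 replicate at a time gave 17871 to 39891 peaks higher and 0 to 50 lower on the deposited scale, and 5543 to 9700 higher and 1352 to 2885 lower on equal totals. Equal totals gave 9244 higher and 1805 lower, median-of-ratios scaling 5982 and 4166, and quantile normalisation 4630 and 4598.

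No pairing by replicate number was seen on equal totals, where same-numbered libraries deviated from their group means with a correlation of 0.034. Equal totals remove any pairing through library scale, and replicate 1 had the lower autosomal total in both genotypes. Pairing can therefore not be excluded. With the replicate number as a block, 37006 peaks were higher and 0 lower on the deposited scale, where the count at an unadjusted p under 0.05 without the block was 35633 higher and 0 lower, and 9324 were higher and 1830 lower on equal totals.

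For peaks over 50 kb against under 5 kb (-0.40), the value was -0.017 within groups of the level per kb, -0.26 between the longest and shortest 20% of peaks, -0.24 without peaks holding a Pol II S2P peak, and -0.49 to -0.33 with 1 replicate left out. Protein-coding against no listed gene (-0.07) turned to 0.044 within level groups and to 0.031 within length classes, and ran from -0.11 to -0.049 with 1 replicate left out. Start against inside was 0.25 within length classes and 0.12 to 0.18 with 1 replicate left out. With against without a Pol II S2P peak was 0.21 within level groups, 0.31 within length classes, -0.0094 when only Pol II S2P peaks of Ctrl mean over 50 counted, and -0.017 to 0.10 with 1 replicate left out. Highest against lowest Ctrl level group was -0.83 with a pseudocount of 10 and -0.88 with either sKO replicate left out. The matching on length and the removal of Pol II S2P peaks were chosen after seeing the data, and the cause of these shifts was not tested. No named peak changed direction in the alternatives that tested it. The Ttn peak fell under the filter, and was not tested, without Ctrl replicate 2.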
